A study of Drosophila melanogaster with 12 samples.

Results

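The messenger RNAs that encode neuropeptides and peptide hormones were followed in whole flies by sex and age. The list of 36 precursor genes was taken as given, by symbol, and leaves out the insulin-like peptides and Akh. The rule uses gene names and no measured value. Of the 36 genes, 33 had a row in both tables of the series, which hold 15130 genes at 10 days and 15261 genes at 30 days, with 14760 genes in both. Lk, ETH and Pburs were not analysed here. All flies were w1118 Drosophila melanogaster, a laboratory stock with a mutation of the white gene. There were 4 groups of 3 libraries, namely males and females of 10 days and males and females of 30 days. The flies mated before they were sorted by sex at 3 days of age and were then kept on a diet with 10% sugar. Each library was made from polyadenylated RNA of 10 pooled flies, so the values are means over pooled animals and over all tissues of the body.

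Insect neuropeptides are made as longer precursor proteins that are cut at basic residues, trimmed and often amidated before they are packed into dense core vesicles. They are released from neurons of the brain and nerve cord, from neurosecretory cells that open into the haemolymph, and from enteroendocrine cells of the midgut, and most act on G protein-coupled receptors. In the adult fly they are known for the control of feeding, sleep, gut and heart movement, water balance, mating behaviour and ageing. Many precursors are made by small numbers of cells, and their transcripts are a small part of the RNA of a whole fly. Precursors are described below by role: those made in both midgut and brain (9 genes), those of the brain and nerve cord (12 genes), those of water balance (5 of 6 genes measured), those of ecdysis (3 of 5 genes measured) and the neuropeptide-like precursors (4 genes).

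The libraries held 23097763 to 62924598 counts. Neuron genes were measured in every library: the 12 pan-neuronal genes together had 1997 to 2295 CPM (counts scaled to a common library total with TMM factors) in males and 462 to 473 CPM in females of 10 days, then 1611 to 2733 CPM in males and 299 to 375 CPM in females of 30 days. All 12 were above 0 in every group. One of them, unc-13, made up 14.3% to 18.6% of their counts in 10-day males but 49% to 56.4% in 10-day females, and 14.8% to 17% against 66.8% to 76.8% at 30 days. The 4 genes of the female germline that had rows (osk, bcd, grk and swa) summed to 695 to 763 CPM in females and 31.6 to 34.8 CPM in males at 10 days, and to 615 to 870 and 37.5 to 42.1 CPM at 30 days. In males this sum was mostly grk, with 1117 to 1229 counts per library at 10 days, and the other 3 genes were lower in males at both ages. The male libraries thus held a larger share of neuron genes and the female libraries a larger share of germline genes. In whole-fly RNA, fewer cells of a type and less RNA per cell cannot be told apart. Counts of osk were present in male replicate 3 at 10 days (44 counts) and male replicate 2 at 30 days (6 counts) and were 0 in the other 4 male libraries. The numbers of precursors called by edgeR are also given without these 2 libraries, while levels, shares and counts of groups that do not overlap were not computed again. Counts of each age stand in a table of their own, so age and any difference in how the tables were made cannot be told apart.

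Levels of different precursors were compared as RPKM, the counts per kilobase of exon scaled to the total of the library. Nplp2 was the most abundant precursor in every group, with 542 ± 124 RPKM in males (SD, n = 3) and 231 ± 50.8 in females at 10 days, then 580.1 ± 21 in males and 148 ± 79.7 in females of 30 days. It made up 27.5% ± 3.89 of all precursor counts in males and 51.4% ± 1.57 in females of 10 days (SD, n = 3), then 20.8% ± 3.66 and 43.3% ± 9.47 by 30 days. Ms, the precursor of myosuppressin, which inhibits heart and gut muscle, followed in males with 95.9 ± 4.84 RPKM at 10 days and 138 ± 34.7 at 30 days. In females of 10 days Nplp3 came second with 22.5 ± 1.7 RPKM, and at 30 days Ms was second with 8.03 ± 4.14, followed by Capa with 7.9 ± 3.65, which do not differ beyond their spread. In males of 10 days the levels from the fourth to the seventh place ran from 42.9 RPKM of CCHa2 over 42.5 of Dh31 and 39.8 of Capa to 39.3 of Mip, also closer together than their SD of 4.77 to 7.83. At the low end stood CNMa, RYa, Eh and amn, of which CNMa in males of 10 days (1.03 RPKM) was the only mean above 1 RPKM. A mean above 1 RPKM in all 4 groups was reached by 23 of the 33 precursors.

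**Figure D1:**
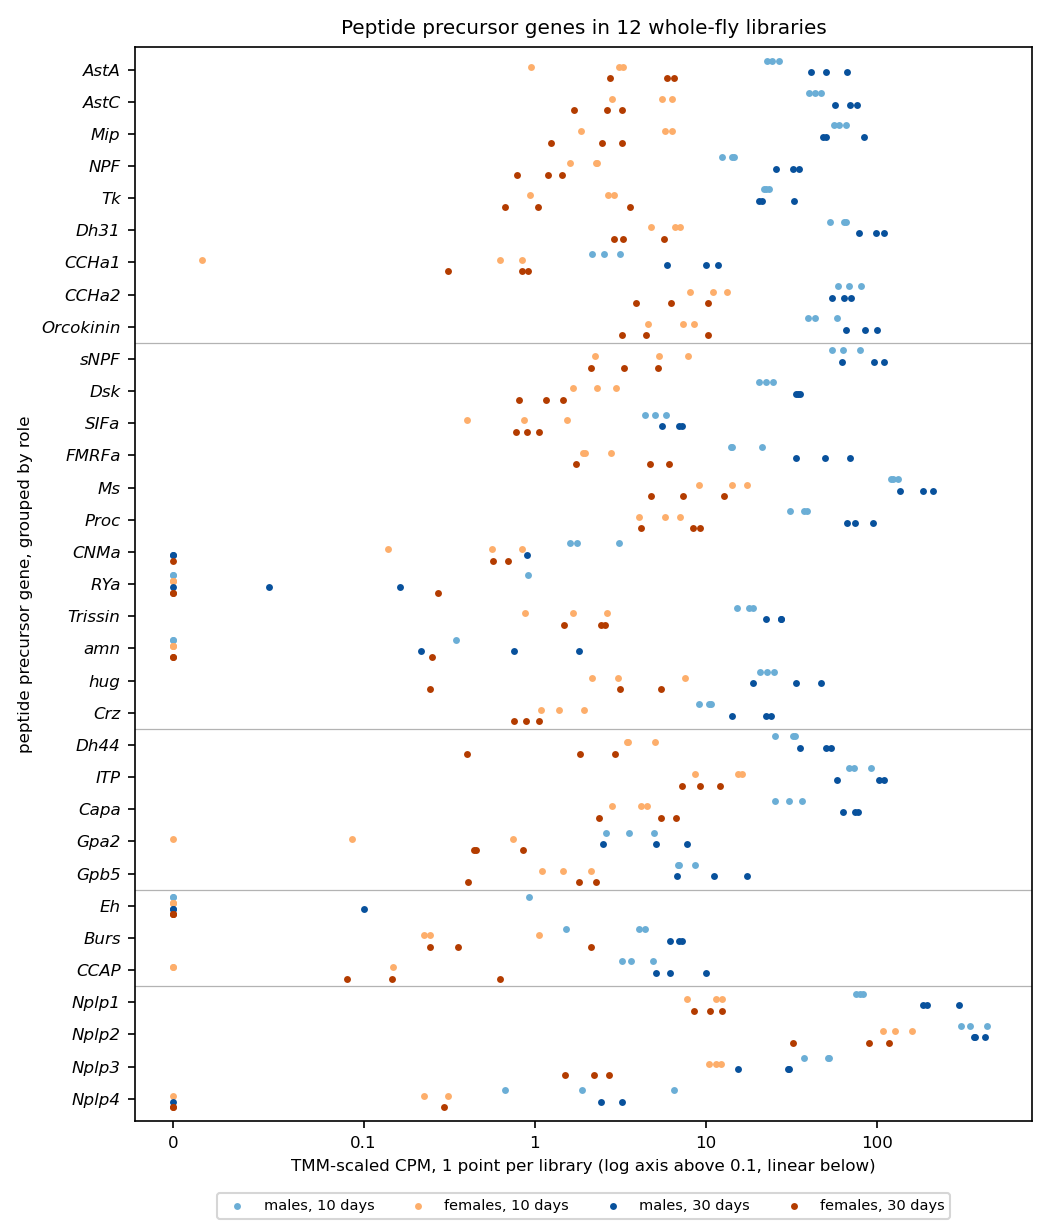
TMM-scaled CPM of the 33 precursors (rows, in 5 role groups split by lines) in each of the 12 libraries, 1 point per library, coloured by sex and age, on an axis that is logarithmic above 0.1 and linear below. For most precursors the blue points of males lie to the right of the orange points of females at both ages, while CNMa, RYa, amn, Gpa2, Eh, CCAP and Nplp4 have libraries at 0.

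Males and females were compared at each age to find which precursors differ between the sexes. At 10 days 27 of 30 precursors tested passed the test toward males and 0 toward females (edgeR quasi-likelihood test, TMM factors, Benjamini-Hochberg adjusted p below 0.05 over all genes). At that age 46.8% of all 13334 genes tested were higher in males and 31.6% were lower. At 30 days 28 of 31 precursors were higher in males and 0 were lower, where 48.4% of 13013 genes were higher and 30.4% lower. Without the 2 male libraries with osk counts the numbers were 25 and 27, with 1 lower at 30 days (CNMa). Relative to neuron genes, as given after the single precursors, 0 were higher at either age. With TMM factors no precursor reached an unadjusted p below 0.05 toward females in the edgeR test, and DESeq2 and limma-voom also called 0 lower in males. The median log2 fold change of males over females was 2.81 over the precursors and 1.06 over all genes at 10 days, and 3.70 and 1.32 at 30 days. The precursor median thus lay 1.75 above that of all genes at 10 days and 2.39 above it at 30 days. In TMM-scaled CPM every male library exceeded every female library for all 30 precursors tested at 10 days, beside 50.6% of all genes tested. At 30 days this held for 28 of 31 precursors, beside 52.7% of all genes.

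Of the 9 precursors made in midgut and brain, 8 were higher in males at 10 days and all 9 at 30 days. These include signals of feeding and of gut movement. AstC stood at 46.8, 43 and 40 CPM in 10-day males, and 10-day females had 6.3, 5.55 and 2.84 CPM. The 30-day males had 76.5, 56.8 and 69.1 CPM, the 30-day females 2.64, 1.7 and 3.23 CPM. AstC, the precursor of allatostatin C, was thus 8.27-fold higher in males at 10 days (log2 fold change 3.05 ± 0.36 SE, adjusted p = 2.13e-04) and 26-fold at 30 days (log2 fold change 4.7 ± 0.33 SE, adjusted p = 1.82e-05), and the sexes did not overlap. Dh31 encodes a calcitonin-like diuretic hormone that also acts on gut movement and sleep. Among flies of 10 days, Dh31 came to 53.3, 63.9 and 65.8 CPM for males but 7.05, 4.77 and 6.61 CPM for females. Values of 109, 78.1 and 98.1 CPM (males) contrasted with 2.89, 3.28 and 5.65 CPM (females) by the age of 30 days. The difference was 9.46-fold at 10 days (log2 fold change 3.24 ± 0.19 SE, adjusted p = 1.25e-05) and 23.5-fold at 30 days (log2 fold change 4.55 ± 0.34 SE, adjusted p = 2.18e-05), again with no overlap of male and female libraries.

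Mip encodes the myoinhibiting peptides, which act on the sex peptide receptor and in sleep. The 3 male libraries of 10 days held 59.9, 65.7 and 56 CPM of Mip, against 5.74, 6.36 and 1.86 CPM for the females. By 30 days, 84, 48 and 50.1 CPM were found for males, compared with 2.46, 1.24 and 3.21 CPM for females. Female replicate 3 was the lowest library of Mip at 10 days, and the male values lay 12-fold (log2 fold change 3.59 ± 0.50 SE, adjusted p = 4.69e-04) and 25.7-fold (log2 fold change 4.69 ± 0.45 SE, adjusted p = 5.57e-05) above the female values at the 2 ages. CCHa2 encodes a nutrient-responsive hormone of gut and fat body that acts on insulin-producing cells. CCHa2 stood at 58.9, 80.1 and 68.6 CPM in 10-day males, and 10-day females had 8.03, 13.3 and 10.9 CPM. The 30-day males had 54.2, 70.2 and 64 CPM, the 30-day females 6.27, 3.88 and 10.2 CPM. Its sex difference was smaller, 6.03-fold (log2 fold change 2.59 ± 0.27 SE, adjusted p = 1.08e-04) and 9.04-fold (log2 fold change 3.18 ± 0.38 SE, adjusted p = 1.55e-04).

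Orcokinin encodes peptides found in enteroendocrine cells and neurons. Among flies of 10 days, Orcokinin came to 39.2, 43.3 and 58.2 CPM for males but 7.32, 8.51 and 4.58 CPM for females. Values of 99.4, 85.2 and 65.7 CPM (males) contrasted with 10.3, 3.24 and 4.46 CPM (females) by the age of 30 days. Males were 6.43-fold (log2 fold change 2.68 ± 0.33 SE, adjusted p = 2.67e-04) and 13.6-fold (log2 fold change 3.76 ± 0.46 SE, adjusted p = 1.89e-04) higher, without overlap. AstA (allatostatin A), NPF (neuropeptide F, a signal of feeding and reward) and Tk (tachykinin) were also higher in males at both ages. AstA was 9.41-fold higher at 10 days (log2 fold change 3.23 ± 0.51 SE, adjusted p = 8.98e-04) and 10.1-fold at 30 days (log2 fold change 3.34 ± 0.39 SE, adjusted p = 1.50e-04). NPF went from 6.2-fold (log2 fold change 2.63 ± 0.33 SE, adjusted p = 2.92e-04) to 26.7-fold (log2 fold change 4.74 ± 0.39 SE, adjusted p = 3.17e-05), and Tk from 9.63-fold (log2 fold change 3.27 ± 0.49 SE, adjusted p = 6.90e-04) to 13.6-fold (log2 fold change 3.77 ± 0.69 SE, adjusted p = 0.00142). CCHa1, the precursor of CCHamide-1, did not pass the test at 10 days (log2 fold change 2.33 ± 1.19 SE, adjusted p = 0.112), where the female libraries held 1, 36 and 45 counts. It was 13-fold higher in males at 30 days (log2 fold change 3.7 ± 0.64 SE, adjusted p = 0.0011). Genes listed for midgut cells moved in the same direction with TMM factors. Those listed for enteroendocrine cells were prospero and target of Poxn (pros and tap). They summed to 125 to 136 CPM in males and 11.7 to 16.7 in females at 10 days. At 30 days the sums were 116 to 204 and 4.23 to 7.56 CPM, with tap at 0 in all female libraries. Only 1 of these 2 genes was tested. With factors from neuron genes its log2 fold change was 0.23 at 10 days and 0.59 at 30 days, and it was not called. The 6 enterocyte genes summed to 1121 to 1805 CPM in males and 267 to 685 in females at 10 days and to 1599 to 2166 and 232 to 548 CPM at 30 days, and 5 of 6 were higher in males at each age. With factors from neuron genes 2 of the 6 were higher and 2 lower in males at 10 days, and 0 were higher and 4 lower at 30 days. Their part in these differences was not tested.

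Of the 12 precursors of the brain and nerve cord, 9 of 10 tested were higher in males at 10 days and 9 of 11 at 30 days. The most abundant was Ms. The 3 male libraries of 10 days held 131, 119.9 and 124 CPM of Ms, against 14.1, 17.4 and 9.12 CPM for the females. By 30 days, 186, 135 and 210.3 CPM were found for males, compared with 7.3, 4.8 and 12.7 CPM for females. The lowest male library lay far above the highest female library at each age, a difference of 8.62-fold at 10 days (log2 fold change 3.11 ± 0.29 SE, adjusted p = 7.55e-05) and 20.9-fold at 30 days (log2 fold change 4.39 ± 0.39 SE, adjusted p = 4.34e-05). Dsk encodes the drosulfakinins, cholecystokinin-like peptides that signal satiety. Dsk stood at 20.2, 22.3 and 24.6 CPM in 10-day males, and 10-day females had 2.3, 2.99 and 1.67 CPM. The 30-day males had 34.4, 33.7 and 35.2 CPM, the 30-day females 0.806, 1.46 and 1.16 CPM. The 3 male libraries of 30 days lay close together, and Dsk had the highest fold change of all precursors at that age, 29-fold (log2 fold change 4.86 ± 0.38 SE, adjusted p = 2.58e-05), after 9.0-fold at 10 days (log2 fold change 3.17 ± 0.35 SE, adjusted p = 1.46e-04).

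Trissin, a precursor of a cysteine-rich peptide, was the last of this group among the 12 most abundant precursors. Among flies of 10 days, Trissin came to 17.7, 18.8 and 15.2 CPM for males but 0.877, 2.65 and 1.67 CPM for females. Values of 22.3, 27.6 and 27.4 CPM (males) contrasted with 2.44, 1.47 and 2.57 CPM (females) by the age of 30 days. It was 9.25-fold (log2 fold change 3.21 ± 0.49 SE, adjusted p = 7.62e-04) and 11.6-fold (log2 fold change 3.54 ± 0.38 SE, adjusted p = 9.81e-05) higher in males, without overlap. sNPF (short neuropeptide F, which promotes feeding) was 11.7-fold higher in males at 10 days (log2 fold change 3.55 ± 0.50 SE, adjusted p = 5.25e-04) and 24.2-fold at 30 days (log2 fold change 4.6 ± 0.42 SE, adjusted p = 4.67e-05). Crz encodes corazonin, which acts in stress responses and, in males, in sperm transfer, and was 6.46-fold (log2 fold change 2.69 ± 0.39 SE, adjusted p = 5.70e-04) and 21.8-fold (log2 fold change 4.44 ± 0.45 SE, adjusted p = 6.95e-05) higher. Proc (proctolin, a stimulator of muscle contraction) was 6.03-fold (log2 fold change 2.59 ± 0.27 SE, adjusted p = 1.15e-04) and 10.4-fold (log2 fold change 3.38 ± 0.36 SE, adjusted p = 9.58e-05) higher. FMRFa, whose peptides modulate muscle contraction, was 6.94-fold (log2 fold change 2.79 ± 0.36 SE, adjusted p = 3.34e-04) and 11.8-fold (log2 fold change 3.57 ± 0.51 SE, adjusted p = 4.17e-04) higher.

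The feeding regulator hug (hugin) was 5.08-fold higher in males at 10 days (log2 fold change 2.34 ± 0.49 SE, adjusted p = 0.00358) and 11-fold at 30 days (log2 fold change 3.46 ± 0.94 SE, adjusted p = 0.010), and its female libraries of 30 days spread from 0.246 to 5.49 CPM. SIFa, a precursor of brain neurons that act in feeding and courtship, was 5.19-fold (log2 fold change 2.37 ± 0.61 SE, adjusted p = 0.0094) and 6.97-fold (log2 fold change 2.8 ± 0.54 SE, adjusted p = 0.00179) higher. Exons of Start1 on the other strand cover 21.1% of the exons of SIFa, 3.54% to 6.32% of amn, CCAP and ITP are covered likewise by other genes, and whether the authors counted by strand is not given in the sources used here. CNMa, RYa and amn were at or near the limit of detection. CNMa had 60, 111 and 74 counts in 10-day males against 38, 8 and 45 in 10-day females (log2 fold change 2.02 ± 0.84 SE, adjusted p = 0.0602), and 0, 18 and 0 against 31, 0 and 25 at 30 days (log2 fold change -0.56 ± 2.13 SE, adjusted p = 0.815). RYa, the RYamide precursor, had 0, 33 and 0 counts for males against 0 in all 3 female libraries at 10 days, which is at least 6.01-fold higher in males when 3 counts per female library are taken as the limit, but all counts came from 1 male library. Counts at 30 days were 6, 1 and 0 (males) and 0, 0 and 12 (females). The memory gene amn had 13, 0 and 0 counts for 10-day males against 0 in all 10-day females. The male mean of 10 days is 2.27-fold above the same limit, again from 1 male library. At 30 days amn had 8, 15 and 65 counts in males against 0, 0 and 11 in females (log2 fold change 3.43 ± 1.8 SE, adjusted p = 0.113). RYa was too low to be tested at either age, and amn at 10 days.

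The hormones of water balance act on the Malpighian tubules and the hindgut. Of 5 precursors, 4 were higher in males at 10 days and all 5 at 30 days. Capa encodes capa peptides and a pyrokinin. The 3 male libraries of 10 days held 25.1, 30.4 and 36.5 CPM of Capa, against 2.83, 4.51 and 4.15 CPM for the females. By 30 days, 76.7, 73.9 and 62.8 CPM were found for males, compared with 6.67, 2.36 and 5.44 CPM for females. Capa was 7.54-fold higher in males at 10 days (log2 fold change 2.91 ± 0.30 SE, adjusted p = 1.15e-04) and 14.4-fold at 30 days (log2 fold change 3.85 ± 0.40 SE, adjusted p = 8.24e-05), with no overlap. The difference for Dh44, a corticotropin-releasing factor-like diuretic hormone, was 7.15-fold (log2 fold change 2.84 ± 0.27 SE, adjusted p = 7.26e-05) and 26.1-fold (log2 fold change 4.71 ± 0.69 SE, adjusted p = 4.41e-04). ITP, the antidiuretic ion transport peptide, was 5.43-fold (log2 fold change 2.44 ± 0.31 SE, adjusted p = 2.99e-04) and 9.21-fold (log2 fold change 3.2 ± 0.33 SE, adjusted p = 7.83e-05) higher in males. Gpa2 and Gpb5 encode the subunits of a glycoprotein hormone. Gpb5 was 4.56-fold (log2 fold change 2.19 ± 0.41 SE, adjusted p = 0.00206) and 7.72-fold (log2 fold change 2.95 ± 0.73 SE, adjusted p = 0.00638) higher, while Gpa2 did not pass the test at 10 days (log2 fold change 3.55 ± 1.53 SE, adjusted p = 0.0674), with 0, 43 and 5 counts in the female libraries, and was 8.48-fold higher at 30 days (log2 fold change 3.08 ± 0.72 SE, adjusted p = 0.00473).

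Ecdysis hormones drive the shedding of the cuticle, which adult flies no longer do, and their levels were low. CCAP (crustacean cardioactive peptide, which also acts on the adult heart) had 3.64, 4.93 and 3.23 CPM in 10-day males against 0.149, 0 and 0 CPM in females, whose 3 libraries held 10, 0 and 0 counts. The 30-day libraries had 5.12, 9.92 and 6.16 CPM (males) and 0.627, 0.147 and 0.0911 CPM (females). It was higher in males at 10 days (log2 fold change 6.13 ± 1.53 SE, adjusted p = 0.00814) and 23.7-fold higher at 30 days (log2 fold change 4.57 ± 0.91 SE, adjusted p = 0.00214). At 10 days CCAP passed the filter through its male libraries alone, so the size of that log2 fold change rests on 10 counts in 1 female library. Burs, a subunit of bursicon, which hardens the cuticle after emergence, was 6.19-fold (log2 fold change 2.63 ± 0.88 SE, adjusted p = 0.0281) and 7.32-fold (log2 fold change 2.87 ± 0.90 SE, adjusted p = 0.0188) higher. At 10 days its call was lost without male replicate 2 or 3 or without female replicate 2 or 3 (adjusted p = 0.0707 to 0.0751), and at 30 days without female replicate 1 (adjusted p = 0.0597). Eh, eclosion hormone, had 0, 0 and 39 counts in males of 10 days and 0, 2 and 0 in males of 30 days, and 0 in all 6 female libraries. It was not tested, and the counts of 10 days, which all came from male replicate 3, a library with osk counts, are at least 6.07-fold above the limit of 3 counts per female library.

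The neuropeptide-like precursors Nplp1 to Nplp4 are named for peptides found in extracts of fly nervous tissue, and their roles are less well known. All 4 were higher in males at 10 days and 3 of 4 at 30 days. Nplp1 stood at 75, 82.3 and 79.4 CPM in 10-day males, and 10-day females had 7.75, 12.4 and 11.4 CPM. The 30-day males had 301, 195 and 186 CPM, the 30-day females 12.4, 8.52 and 10.5 CPM. Nplp1 was 7.07-fold (log2 fold change 2.82 ± 0.23 SE, adjusted p = 4.23e-05) and 21.1-fold (log2 fold change 4.4 ± 0.27 SE, adjusted p = 1.27e-05) higher in males. Among flies of 10 days, Nplp2 came to 346, 439 and 306 CPM for males but 127, 159.8 and 108 CPM for females. Values of 370.1, 424 and 368 CPM (males) contrasted with 116, 32.4 and 89.1 CPM (females) by the age of 30 days. Female replicate 2 of 30 days was the lowest, no libraries of the 2 sexes overlapped, and Nplp2 had the lowest fold change of the precursors called at each age, 2.59-fold (log2 fold change 1.37 ± 0.23 SE, adjusted p = 0.00123) and 4.78-fold (log2 fold change 2.26 ± 0.41 SE, adjusted p = 0.0014).

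Nplp3 showed a second small difference at 10 days. The 3 male libraries of 10 days held 51.5, 37.2 and 52 CPM of Nplp3, against 12.3, 10.4 and 11.4 CPM for the females. By 30 days, 30.3, 30.6 and 15.4 CPM were found for males, compared with 2.22, 2.72 and 1.5 CPM for females. The difference was 3.92-fold (log2 fold change 1.97 ± 0.20 SE, adjusted p = 1.13e-04) and 11.4-fold (log2 fold change 3.51 ± 0.46 SE, adjusted p = 2.51e-04). Nplp4 was uneven, with 25, 68 and 273 counts for 10-day males against 21, 13 and 0 for 10-day females, and 90, 64 and 0 against 0, 0 and 13 at 30 days. It passed the test at 10 days (log2 fold change 3.93 ± 1.52 SE, adjusted p = 0.0474) and not at 30 days (log2 fold change 4.2 ± 2.25 SE, adjusted p = 0.119). The call of 10 days was lost without male replicate 2 or 3 or without female replicate 1 or 2 (adjusted p = 0.0703 to 0.184).

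Because the neuron genes differed between the sexes as the precursors did, the precursors were also compared relative to these genes. Of the 12 neuron genes, 12 were higher in males at 10 days and 11 at 30 days, with a median log2 fold change of 2.94 and 4.18 and the lowest values, 0.43 and 0.49, for unc-13. When library factors were taken from the 12 neuron genes, 0 precursors were higher in males at either age by edgeR, and 2 were lower at each age, the same number that had an unadjusted p below 0.05. Of all genes, 21.5% were then higher in males and 54.4% lower at 10 days, and 19.6% higher and 58.4% lower at 30 days. The median log2 fold change was -0.09 over the precursors and -1.86 over all genes at 10 days, and -0.32 and -2.72 at 30 days. Without the 2 male libraries with osk counts 1 precursor was lower at 10 days (Nplp2, with Nplp3 at -1.08, adjusted p = 0.0982) and 3 at 30 days (Nplp2, CNMa and CCHa2). Nplp2 was lower in males relative to neuron genes at 10 days (log2 fold change -1.55 ± 0.18 SE, adjusted p = 1.42e-04) and at 30 days (log2 fold change -1.68 ± 0.46 SE, adjusted p = 0.00149). Nplp3 was lower at 10 days (log2 fold change -0.93 ± 0.26 SE, adjusted p = 0.0123), while its value at 30 days was -0.64 ± 0.69 SE (adjusted p = 0.402). The sparse CNMa was lower at 30 days (log2 fold change -4.05 ± 1.68 SE, adjusted p = 0.0285), where its males held 0, 18 and 0 counts and its females 31, 0 and 25. This call was lost without male replicate 1 or 3 or female replicate 1 or 3 (adjusted p = 0.0693 to 0.0926), and the log2 fold change ran from -9.88 to -3.44 with each of the 6 libraries left out. The calls of Nplp2 and Nplp3 held without any 1 library. Per library, the 33 precursors together had 0.584 to 0.65 counts for each count of the 12 neuron genes in males and 0.453 to 0.65 in females at 10 days, and 0.77 to 1.06 in males and 0.327 to 0.653 in females at 30 days. The ranges of the sexes overlapped at 10 days and did not at 30 days, and unc-13 gave most of the female neuron counts at 30 days. Without Nplp2 and unc-13 the ratio was 0.488 to 0.61 in males and 0.482 to 0.615 in females at 10 days. At 30 days it was then 0.758 to 0.961 in males and 0.878 to 0.999 in females. The ranges of the sexes thus overlapped at both ages when these 2 genes were left out. Both genes stood out by sex in these same data, so this overlap is not an independent result.

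**Figure D2:**
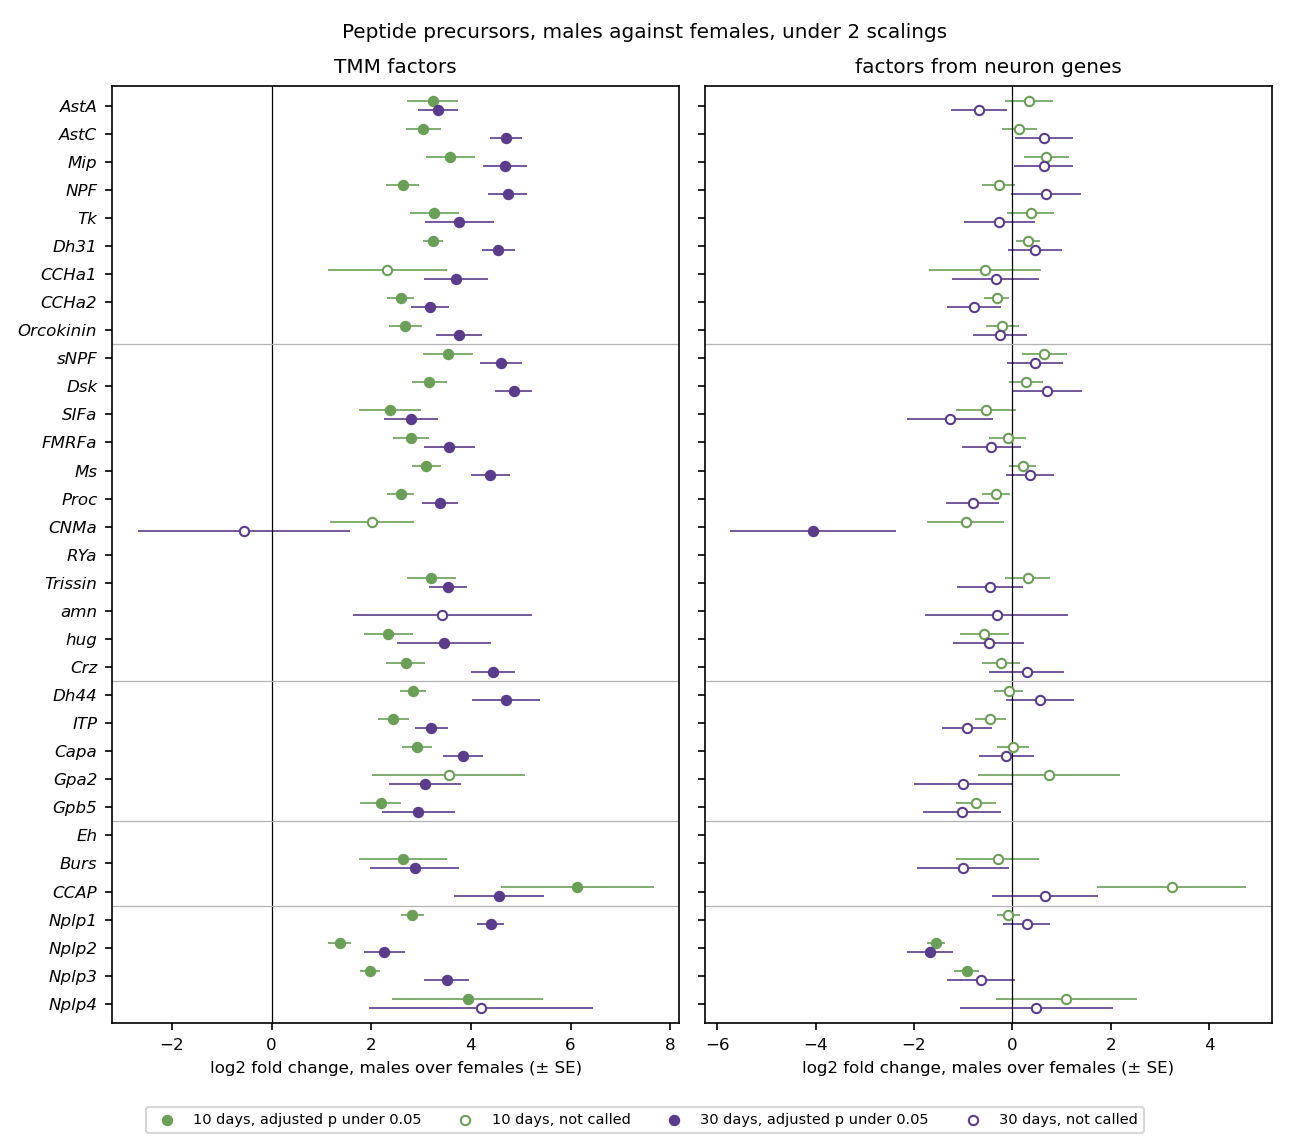
Log2 fold change of males over females (± SE) of each precursor at 10 days (green) and 30 days (purple), with TMM factors on the left and with factors from 12 neuron genes on the right; filled points have an adjusted p below 0.05. With TMM factors all called points lie to the right of 0, from 1.37 for Nplp2 to 6.13 for CCAP at 10 days, where the female libraries held 10, 0 and 0 counts of CCAP. With neuron factors most points lie around 0 and only Nplp2, Nplp3 and CNMa are called, to the left.

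The receptors of these peptides and the proteins that process precursors were given from fixed lists, as the other genes of the pathway. Of 34 receptor genes, 26 were higher in males at 10 days and 0 lower, and of 33 tested at 30 days 27 were higher and 0 lower, with median log2 fold changes of 2.74 and 3.26. Of all genes, 46.8% were higher and 31.6% lower in males at 10 days, and 48.4% and 30.4% at 30 days. No receptor had a negative log2 fold change under TMM factors. With neuron factors 1 was higher and 3 were lower in males at 10 days, beside 21.5% and 54.4% of all genes. At 30 days 2 were higher and 8 lower, beside 19.6% and 58.4%. The 3 receptors with the lowest p at 10 days were Lgr1, the receptor of the Gpa2 and Gpb5 hormone (6.23-fold higher in males, log2 fold change 2.64 ± 0.24 SE, adjusted p = 5.85e-05), AstC-R2, a receptor of allatostatin C (log2 fold change 9.96 ± 0.94 SE, adjusted p = 7.35e-05), and Dh31-R, the receptor of Dh31 (5.89-fold, log2 fold change 2.56 ± 0.33 SE, adjusted p = 3.16e-04). At 30 days they were AstC-R2, Proc-R, the proctolin receptor (4.97-fold, log2 fold change 2.31 ± 0.26 SE, adjusted p = 1.09e-04), and Dh31-R (7.64-fold, log2 fold change 2.93 ± 0.44 SE, adjusted p = 5.40e-04). AstC-R2 stood apart. It had 34.1, 26.3 and 19.5 CPM in males of 10 days and 0, 0.0692 and 0 in females, from 4 counts in 1 of the 3 female libraries. At 30 days it had 31.3, 26.7 and 28.2 CPM in males and no count in any female library, which is at least 467-fold higher in males with 3 counts per female library as the limit. It was also higher in males relative to the neuron genes at 10 days (log2 fold change 7.15 ± 1.12 SE, adjusted p = 7.44e-04). AstC-R2 passed the filter through its male libraries alone at each age. The size of its log2 fold changes at 10 days thus rests on 4 female counts.

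Of 9 processing genes, 6 were higher and 1 lower in males at 10 days, beside 46.8% and 31.6% of all genes. At 30 days these were 6 and 1 of 8 tested, beside 48.4% and 30.4%. The 3 with the lowest p toward males at 10 days were IA-2, a dense core vesicle protein (9.55-fold, log2 fold change 3.26 ± 0.18 SE, adjusted p = 9.60e-06), 7B2, the chaperone of the prohormone convertase amontillado (8.73-fold, log2 fold change 3.13 ± 0.28 SE, adjusted p = 5.54e-05), and Pal2, an amidating lyase (7.79-fold, log2 fold change 2.96 ± 0.30 SE, adjusted p = 1.12e-04). At 30 days they were IA-2 (22.2-fold, log2 fold change 4.47 ± 0.31 SE, adjusted p = 1.83e-05), 7B2 (17.6-fold, log2 fold change 4.13 ± 0.31 SE, adjusted p = 2.38e-05) and amon, the convertase itself (24.9-fold, log2 fold change 4.64 ± 0.39 SE, adjusted p = 3.26e-05). Pal1, the other amidating lyase, went the opposite way and was 1.25-fold lower in males at 10 days (log2 fold change -0.32 ± 0.12 SE, adjusted p = 0.0369) and 1.84-fold lower at 30 days (log2 fold change -0.88 ± 0.20 SE, adjusted p = 0.00465). The call of Pal1 at 10 days was lost with RLE and upper quartile factors, with DESeq2 and in a fit of all 12 libraries. The carboxypeptidase gene svr did not pass the test (log2 fold change -0.27 ± 0.11 SE, adjusted p = 0.0533 at 10 days, log2 fold change -0.10 ± 0.19 SE, adjusted p = 0.646 at 30 days). With neuron factors 0 processing genes were higher and 4 were lower in males at each age, namely svr, Phm (an amidating hydroxylase), Pal1 and Cadps (an activator of vesicle release). Of all genes, 54.4% were lower with these factors at 10 days and 58.4% at 30 days, so the processing genes do not exceed that share.

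**Figure D3:**
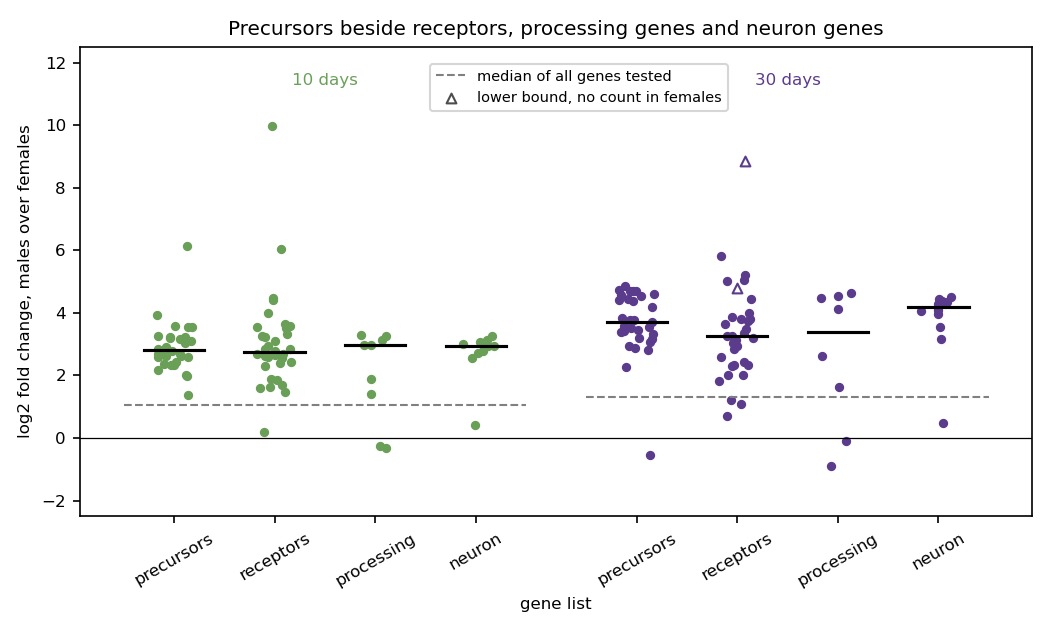
Log2 fold change of males over females (TMM factors) of each gene tested among the precursors, their receptors, the processing genes and the 12 neuron genes, at 10 days (green) and 30 days (purple); black bars are list medians, dashed lines the medians of all genes tested (1.06 and 1.32), and open triangles lower bounds for receptors without a count in females. The medians of the precursors (2.81 and 3.70) lie above the dashed lines and below those of the neuron genes (2.94 and 4.18); relative to the neuron genes the precursor medians are -0.09 and -0.32.

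The change from 10 to 30 days was tested in each sex in a fit of all 12 libraries. In males 1 of 31 precursors tested passed the threshold, beside 0.446% of 14112 genes (0.184% higher and 0.262% lower). This was Nplp1. The male libraries had 75, 82.3 and 79.4 CPM at 10 days and 301, 195 and 186 at 30 days, so that all 3 libraries of 30 days lay above those of 10 days, 2.88-fold (log2 fold change 1.52 ± 0.23 SE, adjusted p = 0.0281). The call was lost without any one of the 3 male libraries of 10 days, without male replicate 1 or 3 of 30 days, without female replicate 1 or 3 of 10 days and without female replicate 3 of 30 days, with adjusted p = 0.0573 to 0.112, and the log2 fold change ran from 1.27 to 1.65 over all 12 libraries left out in turn. Without the 2 male libraries with osk counts it was 1.63 (adjusted p = 0.0836). With neuron factors Nplp1 had a log2 fold change of 1.48 ± 0.30 SE (adjusted p = 0.201), and then 0 of 31 precursors and 0% of genes passed, with 6 precursors at an unadjusted p below 0.05, all positive, beside 2.86% of genes.

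No other precursor passed the edgeR test with age in males. Of the 31 precursors, 27 had a positive log2 fold change, with a median of 0.62 beside -0.08 over all genes, and 9 had an unadjusted p below 0.05, of which 8 were positive, beside 5.52% of all genes, and Nplp3 was negative, beside 6.46%. In 17 of 31 precursors every male library of 30 days lay above every male library of 10 days, and in 2 every one lay below, beside 9.86% and 15.5% of all genes. FMRFa had 14.2, 13.9 and 21.1 CPM in males at 10 days and 68.8, 49.4 and 33.5 at 30 days (log2 fold change 1.62 ± 0.43 SE, adjusted p = 0.15). Of the others with a positive value and an unadjusted p below 0.05, NPF had a log2 fold change of 1.18 (adjusted p = 0.133), Proc 1.14 (0.15), Capa 1.21 (0.167), Crz 1.0 (0.264), AstA 1.1 (0.341) and Dh31 0.64 (0.354), with adjusted p in brackets. CCHa1 stood at 1.82 ± 0.93 SE (adjusted p = 0.48). How many passed depended on the test: 4 of the 19 precursors with an adjusted p were higher with DESeq2 (FMRFa, Proc, Capa and Nplp1), beside 2.62% of 8334 genes, and 11 were higher and 1 lower with limma-voom, beside 2.37% and 6.45%. DESeq2 gave the other 12 no adjusted p, among them NPF (unadjusted p = 1.21e-04) and Crz (unadjusted p = 0.00501). A fit of the 6 male libraries alone called 11 higher, beside 2.76% of 13724 genes. The 11 higher with limma-voom were AstA, AstC, NPF, Dh31, Orcokinin, Dsk, FMRFa, Proc, Crz, Capa and Nplp1, and the lower one was Nplp3. The edgeR fit of males alone called CCHa1 (adjusted p = 0.0286) and not Dsk (adjusted p = 0.0571), and otherwise the same higher precursors. Nplp3 had 51.5, 37.2 and 52 CPM in males of 10 days and 30.3, 30.6 and 15.4 at 30 days, and did not pass with edgeR (log2 fold change -0.88 ± 0.31 SE, adjusted p = 0.265).

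In females 1 of 31 precursors passed the threshold, beside 0.326% of 14112 genes (0.0213% higher and 0.305% lower), and this was Nplp3. The female libraries had 12.3, 10.4 and 11.4 CPM at 10 days and 2.22, 2.72 and 1.5 at 30 days, a 5.28-fold lower level with no overlap (log2 fold change -2.4 ± 0.32 SE, adjusted p = 0.0217). The call held with each of the 12 libraries left out in turn (log2 fold change -2.66 to -2.27, adjusted p = 0.0105 to 0.0486), was lost without the 2 male libraries with osk counts (-2.40, adjusted p = 0.0725) and did not pass with limma-voom (-2.41, adjusted p = 0.0907). With neuron factors Nplp3 stood at -1.15 ± 0.49 SE (adjusted p = 0.0695). Of the 31 precursors, 10 had positive and 21 negative log2 fold changes, with a median of -0.30 beside 0.00 over all genes. In 5 precursors (NPF, Dsk, Crz, Dh44 and Nplp3) every female library of 30 days lay below every library of 10 days, beside 8.61% of all genes, and in 0 every one lay above, beside 5.12%. DESeq2 called 2 lower, beside 3.4% of all genes, and limma-voom 0, beside 0.624%. The second one called by DESeq2 was Dsk, with a log2 fold change of -1.02 (adjusted p = 0.0305).

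The neuron genes had a median log2 fold change with age of -1.15 in females, with negative values in 12 of 12 and 1 that passed the edgeR test, brp. DESeq2 called 9 of the 12 lower, beside 3.4% of all genes, and limma-voom 0, beside 0.624%. The precursors are therefore given again relative to the neuron genes. With neuron factors 6 precursors were higher in females at 30 days and 0 lower, beside 44.5% and 1.13% of all genes, and the median of all genes moved to 1.06. The precursor median was 0.63. The 6 were AstA (log2 fold change 2.09 ± 0.48 SE, adjusted p = 0.00772), FMRFa (1.91 ± 0.45, adjusted p = 0.00773), Proc (1.6 ± 0.43, adjusted p = 0.00993), Trissin (1.41 ± 0.49, adjusted p = 0.0302), Capa (1.36 ± 0.39, adjusted p = 0.0132) and Nplp1 (1.12 ± 0.30, adjusted p = 0.00953). The call of Trissin was lost with 7 of the 12 libraries left out in turn (adjusted p = 0.0501 to 0.112, log2 fold change 1.10 to 1.86 over all 12), and that of Capa without female replicate 1 of 10 days (adjusted p = 0.0547). The other 4 calls held with each library left out. The share of 6 of 31 lies below that of all genes. The 12 neuron genes had a median log2 fold change of 0.05 with age in males, and 0 of 12 passed in that sex by edgeR, also at an unadjusted p below 0.05. amn had no count in females of 10 days and, at 30 days, 11 counts in 1 female library. The female mean of 30 days is 1.64-fold above 3 counts per library, and the change did not pass the edgeR test with TMM factors (adjusted p = 0.473).

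Whether the sex difference changed with age was tested in the same fit. Of the 31 precursors 0 passed with edgeR, beside 0.0142% of 14112 genes, and 9 had an unadjusted p below 0.05, all toward a larger excess of males at 30 days, beside 6.80% of genes in that direction. The highest values were those of NPF (log2 difference 2.05 ± 0.43 SE, adjusted p = 0.0986) and Dh44 (log2 difference 1.84 ± 0.70 SE, adjusted p = 0.296), and the lowest adjusted p was shared by NPF and Nplp1 (log2 difference 1.53 ± 0.32 SE, adjusted p = 0.0986). DESeq2 called 7 of the 30 precursors with an adjusted p (AstC, NPF, Dh31, Dsk, Crz, Nplp1 and Nplp3), beside 2.27% of 12410 genes toward the same direction, and limma-voom 0, beside 0.39%. The median log2 difference was 0.83 over the precursors and 0.02 over all genes. For the 12 neuron genes this median was 1.18. Relative to the neuron genes the precursor median was -0.22 and 0 precursors passed, beside 0.262% of all genes higher and 13.8% lower. At an unadjusted p below 0.05 there were also 0 precursors, beside 1.33% of all genes higher and 35.8% lower. The part of the lower neuron gene levels in females of 30 days in these differences was not tested.

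**Figure D4:**
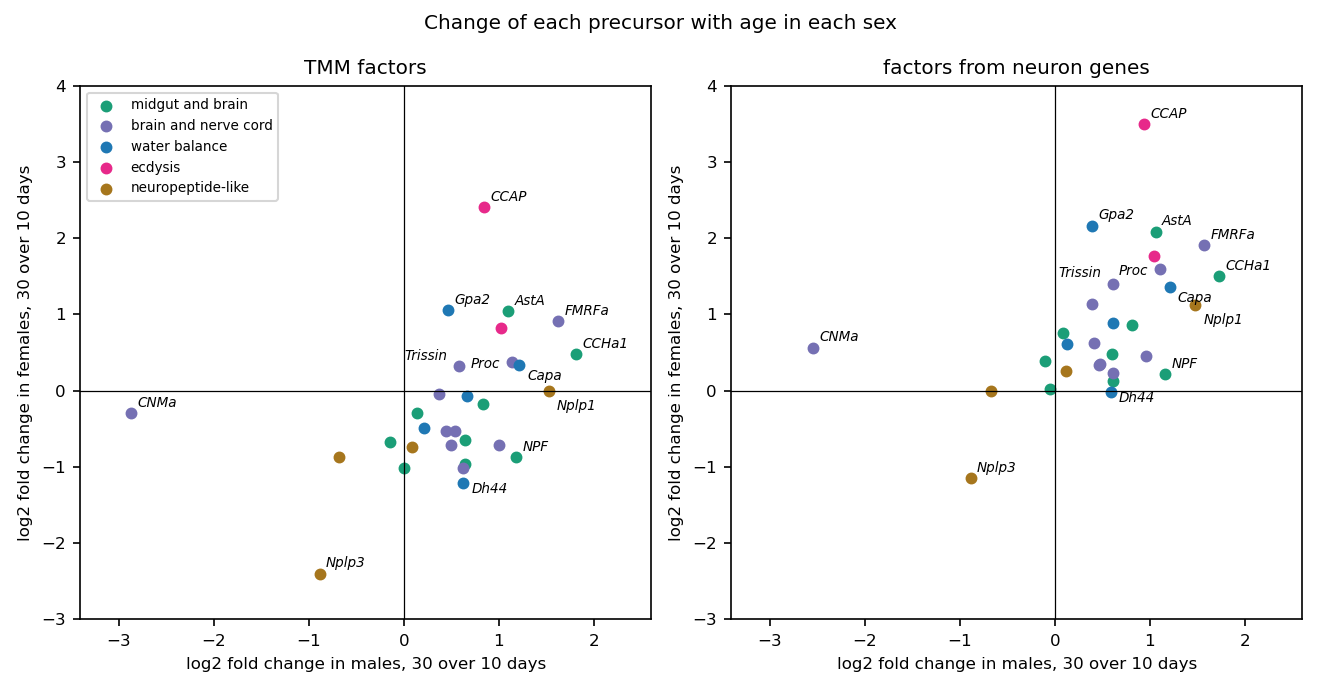
Log2 fold change from 10 to 30 days of each precursor in males (horizontal) and in females (vertical), with TMM factors on the left and with factors from neuron genes on the right, coloured by role; amn is left out since it had no count in females of 10 days. With TMM factors most points lie right of 0 and around or below 0 on the vertical axis, with Nplp1 at 1.52 in males and Nplp3 at -2.40 in females, and with neuron factors the points move upward while the horizontal positions change little.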

How the data were processed

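Raw counts per gene of whole w1118 flies were deposited by the authors in a table for each age, after the sequencing provider had mapped paired-end reads of polyadenylated RNA to the Drosophila melanogaster genome. The aligner, the counting program, its strand setting, the genome build and the annotation are not given in the sources used here. The authors also deposited 16 columns of normalized values and group means, and fold changes and p-values of their own comparisons, none of which were used. In the 30-day count table and in a short table of selected genes, male replicates 1 and 2 carry exchanged values, and the names of the count table were kept. The exchange leaves the groups as they are and bears on which of these 2 libraries carries which number. Results that use the replicate number, namely the block and the comparison of samples with the same number, rest on the names kept.

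Samples were grouped by the sex and age in their labels. Genes with a symbol in RefSeq were 15120 of 15130 at 10 days and 15250 of 15261 at 30 days. Counts were tested with the quasi-likelihood test of edgeR 4.0.16 in R 4.3.3 with TMM factors after filterByExpr (minimum count 10, minimum total count 15), with Benjamini-Hochberg adjustment over all genes tested and a threshold of 0.05. The sexes were compared in the 6 libraries of an age, and age and its interaction with sex in all 12 libraries over the genes of both tables. CPM were scaled by the TMM factors of the 12 libraries. RPKM were counts per kilobase of all exons of a gene (Ensembl BDGP6.54 annotation), scaled to the total count of the library. Alternatives were other factors (RLE, upper quartile, total counts, 12 neuron genes), other filters, the replicate number as a block, DESeq2 1.42.0, limma-voom (limma 3.58.1), other sets of libraries, a fold threshold, and each library left out. The omission of the 2 male libraries with osk counts, and neuron factors with each library left out or with the block, were chosen once results had been seen. The 2 genes left out of the ratio of precursor to neuron counts, Nplp2 and unc-13, stood out by sex in these same data. The script was tested on simulated counts in which few genes changed, as many up as down. Such counts lack the wide sex difference of these libraries and do not bear on the choice of factors.

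The members and lists were chosen with earlier results of these data known. Full statistics were given for precursors called in a fit, values of every library for the 12 precursors of highest mean RPKM and for those without a count in a group, and the 3 receptors and the 3 processing genes of lowest p in each direction were named in each sex comparison. Intervals between libraries rest on 3 pools of 10 flies per group from independent experiments, and totals of 23097763 to 62924598 counts set the counting precision.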

Additional observations from a re-analysis of the deposited data

How the results depend on the processing

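The excess of males in TMM-scaled counts was stable in number: with RLE, upper quartile or total count factors, other filters, DESeq2, limma-voom, a fold threshold, the replicate block or all 12 libraries in 1 fit, 25 to 30 precursors were higher in males at 10 days and 28 or 29 at 30 days. With each library left out it was 25 to 27 and 27 to 30. The scalings moved the median of all genes, from 1.06 to 1.27 with RLE or upper quartile factors and to 0.90 with total counts at 10 days, and from 1.32 to 1.48, 1.62 and 1.04 at 30 days. Factors from neuron genes gave 0 higher and 2 lower at each age (0 or 1 higher and 2 or 3 lower with each library left out at 10 days, 0 higher and 1 or 2 lower at 30 days). These factors align the libraries by the median of the 12 neuron genes, and the cause of the difference was not tested.

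With neuron factors the log2 fold change of males over females turned negative at 10 days for NPF (-0.27), CCHa1 (-0.56), CCHa2 (-0.32), Orcokinin (-0.21), SIFa (-0.53), FMRFa (-0.092), Proc (-0.33), CNMa (-0.95), hug (-0.57), Crz (-0.22), Dh44 (-0.078), ITP (-0.45), Gpb5 (-0.73), Burs (-0.30), Nplp1 (-0.086), Nplp2 (-1.55) and Nplp3 (-0.93). At 30 days it did so for AstA (-0.68), Tk (-0.27), CCHa1 (-0.34), CCHa2 (-0.78), Orcokinin (-0.25), SIFa (-1.26), FMRFa (-0.43), Proc (-0.81), Trissin (-0.46), amn (-0.32), hug (-0.48), ITP (-0.92), Capa (-0.13), Gpa2 (-1.01), Gpb5 (-1.02), Burs (-1.0), Nplp2 (-1.68) and Nplp3 (-0.64). CNMa at 30 days ran from -7.23 without male replicate 2 to 0.057 without male replicate 1 and was 0.053 without male replicate 3.

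With age in males the number of higher precursors was 1, against 0 with neuron factors, 0 with the replicate block, 4 with DESeq2 (of 19 with an adjusted p), 11 with limma-voom (and 1 lower), 11 in the males alone and 0 to 1 with each library left out. In females the number of lower precursors was 1, against 0 with neuron factors (and 6 higher, 5 to 7 with each library left out, with 0 or 1 lower), 0 with the replicate block, 2 with DESeq2, 0 with limma-voom and 1 to 2 with each library left out. The value of Nplp1 in females, -0.01, turned to 0.0036 with RLE factors and with DESeq2, 0.000704 with limma-voom, 0.085 with total counts, 1.12 with neuron factors, 0.0059 in the females alone, and 0.15 and 0.066 without female replicate 2 of 10 or of 30 days. Dsk in females turned to 0.23 with neuron factors, and Trissin ran from -0.081 without female replicate 1 to 0.79 without female replicate 2 of 10 days. For the interaction DESeq2 called 7 and the omission of each library 0 to 1. Over all genes, 63 changed with age in males against 0 with neuron factors, 0 with the block, 572 with DESeq2, 1245 with limma-voom, 648 in males alone and 0 to 89 with each library left out. In females the numbers were 46 against 20 with total counts, 6441, 3, 615, 91 and 23, and 7 to 257. For the interaction they were 2 against 1985, 0, 541 and 83, and 0 to 91. The causes were not tested.

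Without the 2 male libraries with osk counts, 25 precursors were higher at 10 days and 27 at 30 days, 1 was lower at 30 days (CNMa), and 0 were called with age in either sex or in the interaction. With neuron factors as well, 1 was lower at 10 days and 3 at 30 days. The receptors went from 26 to 19 higher at 10 days and from 27 to 21 at 30 days, and the processing genes from 1 to 0 lower at 10 days. With each library left out, 23 to 25 and 20 to 27 receptors and 6 to 7 processing genes at each age were higher, and 0 to 1 processing genes lower at 10 days. With neuron factors 1 receptor was higher and 3 lower at 10 days, 2 and 8 at 30 days, and 0 processing genes were higher and 4 lower at each age. Of all genes, 54.4% were then lower at 10 days and 58.4% at 30 days. At 10 days the number of lower processing genes was 0 with RLE or upper quartile factors, the replicate block, DESeq2, all 12 libraries or a fold threshold and 2 with total counts or limma-voom, and at 30 days 0 with a fold threshold.

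Samples with the same replicate number did not deviate together (correlations of -0.27 to 0.07, with 8 of 24 samples closest to their own number). With 3 libraries in a group, and numbers 1 and 2 of the 30-day males exchanged between 2 tables, this cannot exclude that the numbers pair the samples. With the replicate block 25 and 28 precursors were higher in males, 0 changed with age or in the interaction, and Nplp1 in males and Nplp3 in females stood at 1.51 (adjusted p = 0.0885, edgeR) and -2.43 (adjusted p = 0.0837). With neuron factors and the block 1 precursor was lower in males at 30 days, and CNMa stood at -7.79 (adjusted p = 0.179).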
